A study of Mus musculus with 6 samples.

Results

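The stem and progenitor marker genes Cd34, Ly6a, Procr, Slamf1, Cd48, Thy1, Esam, Ctnnal1, Cd27 and Prom1 were followed in c-Kit+ leukemia cells of mice with and without floxed Chd7. Each gene was read from the probe set annotated to its symbol alone, taking the one of highest mean level where there were several. Of the 10 genes, 9 had such a probe set, 1 each, among 22180 named genes. Ly6a is not analysed here. A filter on low levels, described below, kept 7 of the 9 for the test and left out Cd27 and Prom1, whose levels are given with no test.

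All mice carried Mx1-Cre, a recombinase driven by an interferon-responsive promoter, and Cbfb+/56M, 1 conditional allele of the fusion of Cbfb with a myosin gene that arises from inversion of chromosome 16 in human acute myeloid leukemia. The control group had no further allele (3 samples), and the Chd7f/f group also carried floxed Chd7, which encodes a chromatin remodeller (3 samples). Mice of both groups received ENU, a mutagen, and pIpC, which induces interferon and so Cre. Spleen cells positive for c-Kit were sorted at the end stage of leukemia, and the total RNA of each sample was measured on 1 mouse Gene 2.0 ST array. Age and strain are not in the labels used here. Levels are given in log2 units after RMA, a difference is always the mean of Chd7f/f less that of the control, and 6 arrays limit the precision.

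Blood stem and progenitor cells of the mouse are told apart by combinations of surface proteins. Stem cells and multipotent progenitors lie among lineage-negative cells with c-Kit and Sca-1, the product of Ly6a, while committed myeloid progenitors have c-Kit without Sca-1 and are divided by CD34 and Fc gamma receptors. The SLAM proteins refine this: stem cells carry CD150, from Slamf1, and lack CD48. CD201, from Procr, ESAM and low CD90, from Thy1, are further stem cell markers, CD27 marks stem cells and multipotent progenitors, and CD133, from Prom1, is a pentaspan membrane protein used as a stem cell marker mainly in human blood. Ctnnal1 encodes alpha-catulin, an intracellular catenin-like protein, and reaches the list because a reporter of this gene marks stem cells. An mRNA level does not show how much protein is on the surface.

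No detection calls were used. A level of 4.68, under which lay the mean levels of 95% of 1088 olfactory receptor genes, served as a mark for background, since these genes are not known to act in blood cells. A probe set's level also depends on its probes, so genes are not ranked against each other. Kit, which encodes the c-Kit protein used in the sort, was at 11.72, 12.12 and 11.68 on control arrays 1, 2 and 3 and at 12.48, 11.69 and 11.90 on Chd7f/f arrays 1, 2 and 3. Chd7 overlapped between genotypes, from 5.32 to 7.54 on control arrays and from 5.48 to 6.50 on Chd7f/f arrays, and where its probes lie relative to the floxed part is not given in the sources used here. Control replicate 1 stood apart from the other arrays on the first principal component, with a score of -55.0 against 3.35 to 25.1. Control replicate 2 was the only array with the female pattern of Xist and Eif2s3y. The design text calls the samples independent without naming a mouse for each, so a p-value here measures only how the samples vary.

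By RNA the 6 leukemias shared Cd48 and Ctnnal1 at levels far above background, had Cd34 and Thy1 above it in varying amounts, and differed most in Slamf1. Procr, Esam, Cd27 and Prom1 lay at or near background in both genotypes. None of the 7 tested genes passed an adjusted p of 0.05 (limma, adjusted p = 0.9998 for each), where 0% of the 15526 genes tested did. At an unadjusted p under 0.05 there was 1 of 7, Ctnnal1, against 1.84% of all genes. The genotypes did not overlap for 2 of 7, Ctnnal1 and Procr, both lower in Chd7f/f leukemias, against 6.81% of all genes. Of the 7, 3 had a higher and 4 a lower mean in Chd7f/f, beside 43.7% and 56.3% of all tested genes. Their median difference was -0.26, beside -0.027 over all tested genes. This median was -0.11 without control replicate 2.

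**Figure D1:**
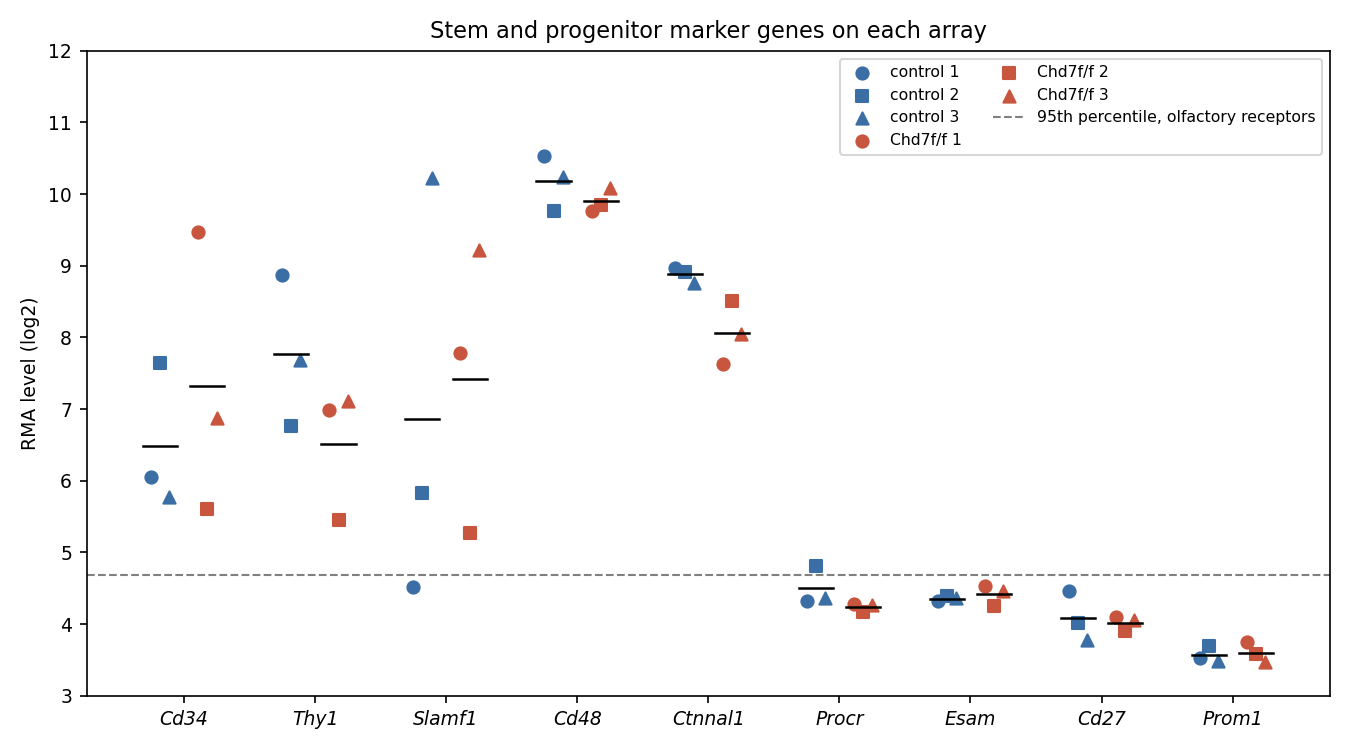
RMA level (log2) of the 9 measured marker genes on each array, with control in blue, Chd7f/f in red, the replicate number as marker shape and the mean of each genotype as a black bar. The dashed line is the background mark of 4.68; Slamf1 runs from 4.51 to 10.22 while Procr, Esam, Cd27 and Prom1 stay below 4.82.

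Slamf1 encodes CD150, a receptor that binds itself on neighbouring cells and signals through small adaptor proteins. It was at 4.51, 5.83 and 10.22 on control arrays 1, 2 and 3 and at 7.78, 5.27 and 9.22 on Chd7f/f arrays 1, 2 and 3. The highest and the lowest of the 6 values were both in the control, 5.71 log2 units or 52.4-fold apart, with control replicate 1 below the background mark. Control replicates 1 and 2 and Chd7f/f replicate 2 were below a level of 6, and each genotype had an array above 9. The Chd7f/f values all lay between the lowest and the highest control value. The control mean was 6.86 ± 2.99 and the Chd7f/f mean 7.42 ± 2.00 (SD, n = 3 each), a difference of 0.57 with a 95% interval of -3.47 to 4.61 (limma, adjusted p = 0.9998). Its sign turned when control replicate 1 was left out, at -0.60, or Chd7f/f replicate 3, at -0.33. Omitting control replicate 3 gave 2.25, omitting Chd7f/f replicate 2 gave 1.64 and omitting control replicate 2 gave 0.056. The SD of Slamf1 over the 6 arrays, 2.29, was larger than that of 99.9% of tested genes.

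Cd48, the partner of Slamf1 in the SLAM scheme and the ligand of the natural killer receptor 2B4, was well above background on every array. Control arrays 1, 2 and 3 had 10.53, 9.76 and 10.25, and Chd7f/f arrays 1, 2 and 3 had 9.77, 9.84 and 10.08. All 6 leukemias thus had Cd48 RNA within 0.77 log2 units, or 1.70-fold, of each other, and the genotypes overlapped. This spread was far smaller than that of Slamf1, although the SD of Cd48 over the 6 arrays, 0.31, was still larger than that of 70.2% of tested genes. The difference was -0.28 (95% interval -0.81 to 0.25, limma, adjusted p = 0.9998), or -0.11 with control replicate 1 omitted and -0.49 with control replicate 2 omitted. As whole samples, none of the 6 leukemias had Slamf1 RNA without Cd48 RNA. The CD150+ CD48- stem cell gate applies to single cells, so these bulk levels do not show whether such cells were present. Control replicate 1, with Slamf1 at background, had Cd48 alone of the pair, and control replicate 3 and Chd7f/f replicates 1 and 3 had both at a level above 7.

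RefSeq (GRCm38.p6) places Cd244a, Ly9, Slamf7, Cd48, Slamf1, Cd84 and Slamf6 in this order on chromosome 1, with 1 other coding gene between Cd48 and Slamf1. These genes did not move together. Control replicate 1, the array lowest in Slamf1, was also lowest in Cd84, which encodes another SLAM receptor, at 6.99 against 8.69 to 9.46 on the other arrays. The same array was highest in Cd244a, which encodes 2B4, at 6.96 against 4.60 to 5.25, and in Slamf7, at 7.52 against 4.54 to 5.10. Ly9 and Slamf6 stayed below the background mark on all 6 arrays, at 4.16 to 4.66 and 3.86 to 4.18. Of the 11 genes on a list of SLAM receptors and their adaptors 9 were tested. Of these, 6 had a higher and 3 a lower mean in Chd7f/f, beside 43.7% and 56.3% of all tested genes. Of the 9, 0 passed an adjusted p of 0.05 and 1 an unadjusted p of 0.05 (limma). That 1 gene was the adaptor gene Sh2d1b1, 0.35 higher at levels of 3.91 to 4.49, all below the background mark.

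**Figure D2:**
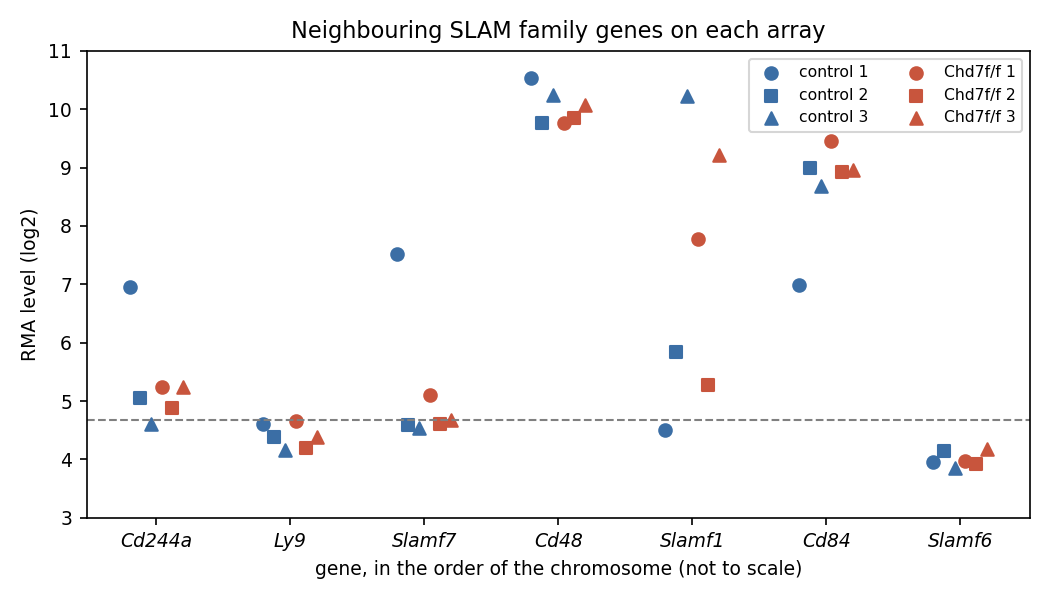
RMA level (log2) of 7 neighbouring SLAM family genes on each array, in their order on the chromosome, with control in blue, Chd7f/f in red, the replicate number as marker shape and the background mark dashed. Cd48 stays between 9.76 and 10.53 while Slamf1, the next gene shown, spreads from 4.51 to 10.22. Control replicate 1 alone is high in Cd244a and Slamf7 and low in Cd84.

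Cd34 encodes a sialomucin of progenitor and endothelial cells, and in adult mice it sets most progenitors apart from the longest-lived stem cells. It was at 6.05, 7.64 and 5.77 on control arrays 1, 2 and 3 and at 9.47, 5.61 and 6.87 on Chd7f/f arrays 1, 2 and 3. All 6 values lay above the background mark, and Chd7f/f replicate 1 was highest and Chd7f/f replicate 2 lowest, 14.6-fold apart. The control mean was 6.49 ± 1.01 and the Chd7f/f mean 7.32 ± 1.97 (SD, n = 3 each), a difference of 0.83 with a 95% interval of -1.66 to 3.32 (limma, adjusted p = 0.9998). Chd7f/f replicate 1 set its sign: with that array omitted the difference was -0.25. Omitting Chd7f/f replicate 2 gave 1.69, control replicate 2 1.41 and control replicate 3 0.47. Array weights brought it to 0.52.

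The upstream sequences of Slamf1 and Cd34, the genes with the widest spans, are shown because the fusion allele alters the core-binding factor, whose RUNX subunit reads the letters TGTGGT. They are from RefSeq (GRCm38.p6), 5′ to 3′ on the plus strand, up to the base before the RefSeq gene start, at chr1:171766882-171767130 for Slamf1 and chr1:194938571-194938820 for Cd34. Capitals mark matches to AGGAAG, letters of ETS factor sites, on either strand:
Slamf1: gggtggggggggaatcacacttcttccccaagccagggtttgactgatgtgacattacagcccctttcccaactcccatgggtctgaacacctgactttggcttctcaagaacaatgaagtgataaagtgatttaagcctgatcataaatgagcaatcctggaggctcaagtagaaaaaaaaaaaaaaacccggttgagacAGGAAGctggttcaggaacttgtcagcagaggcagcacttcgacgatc
Cd34: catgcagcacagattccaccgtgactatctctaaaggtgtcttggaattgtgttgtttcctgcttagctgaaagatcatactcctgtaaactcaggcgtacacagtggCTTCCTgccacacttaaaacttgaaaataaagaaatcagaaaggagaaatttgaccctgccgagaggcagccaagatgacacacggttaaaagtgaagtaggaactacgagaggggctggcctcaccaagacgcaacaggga
Each held 1 match to AGGAAG, on the plus strand in Slamf1 and on the minus strand in Cd34, and 29.5% of 32851 upstream windows of 250 bases held at least 1. Neither held TGTGGT, found in 14.0% of windows, nor the GATA letters AGATAA, found in 9.99%, on either strand. A match is only a description, and the absence of these letters concerns these windows alone.

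The Fc gamma receptor genes that complete the myeloid progenitor gate are Fcgr3 and Fcgr2b, whose proteins the usual antibody for this gate does not tell apart. Fcgr3 was above the background mark on all 6 arrays, at 5.95, 7.10 and 6.03 on control arrays and 6.25, 5.91 and 6.32 on Chd7f/f arrays. Fcgr2b was at 7.60, 9.47 and 9.31 on control arrays 1, 2 and 3 and at 9.71, 10.20 and 10.24 on Chd7f/f arrays 1, 2 and 3. It was lowest by far in control replicate 1, and the genotypes did not overlap. The difference of 1.26 (SE 0.51; limma, adjusted p = 0.9998) went to 0.66 without control replicate 1. Cd34 and Fc gamma receptor RNA were thus both above background in all 6 leukemias. Chd7f/f replicate 1 had the most Cd34 and Chd7f/f replicate 3 the most Fcgr2b, while control replicate 2, next highest in Cd34, had the most Fcgr3.

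Thy1 encodes CD90, a small protein anchored by a lipid, low on mouse stem cells and abundant on T cells. It was at 8.87, 6.76 and 7.68 on control arrays 1, 2 and 3 and at 6.98, 5.46 and 7.11 on Chd7f/f arrays 1, 2 and 3. Control replicate 1 was highest and Chd7f/f replicate 2 lowest, 10.6-fold apart, and the Chd7f/f values overlapped the control only through control replicate 2. The means were 7.77 ± 1.06 and 6.52 ± 0.92 (SD, n = 3 each), a difference of -1.25 with a 95% interval of -2.84 to 0.34 (limma, adjusted p = 0.9998). Omitting control replicate 1 gave -0.70 and omitting Chd7f/f replicate 2 gave -0.72, while omitting control replicate 2 gave -1.76.

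T cell markers were measured beside Thy1. Of 13 T and NK cell markers 9 stayed below the background mark on every array, among them Cd3g, Cd3d, Cd4 and Cd8b1. The defining gene Cd3e was at 4.99 to 5.46, and Cd5 at 4.94 to 5.63. Cd5, like Thy1, was highest on control replicate 1 and lowest on Chd7f/f replicate 2, while Cd3e was highest on Chd7f/f replicate 3. The mean level of the list was 4.14 to 4.22 on control arrays and 4.09 to 4.26 on Chd7f/f arrays. On control replicate 1, the array highest in Thy1, it was 4.22, and on Chd7f/f replicate 2, the array lowest in Thy1, 4.09. The part of T cells in the levels of Thy1 was not tested.

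Ctnnal1 gave the clearest difference between genotypes among the marker genes. It was at 8.97, 8.91 and 8.76 on control arrays 1, 2 and 3 and at 7.63, 8.51 and 8.05 on Chd7f/f arrays 1, 2 and 3. All 3 Chd7f/f values lay below all 3 control values, and the control arrays were close together while the Chd7f/f arrays spread over 0.88 log2 units, lowest in Chd7f/f replicate 1. The means were 8.88 ± 0.11 and 8.06 ± 0.44 (SD, n = 3 each), a difference of -0.82 (SE 0.23, 95% interval -1.38 to -0.26). The limma test gave an adjusted p of 0.9998, so the difference did not pass over all genes. An exact two-sided permutation test gave p = 0.1, the smallest that 3 against 3 arrays allow. This p follows from the lack of overlap alone, and Procr had the same. Leaving out each array in turn gave differences of -1.04 to -0.60, with the smallest size without Chd7f/f replicate 1.

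Markers of other blood cell types were measured beside these genes. Over all tested genes 43.7% were higher and 56.3% lower in the Chd7f/f group. Of 14 tested monocyte and granulocyte markers 13 were higher and 1 lower. Among the 13, Ly6g stayed below the background mark on every array and S100a9 passed it on 1. The list had mean levels of 5.03 to 5.43 on control and 5.18 to 6.08 on Chd7f/f arrays, highest on Chd7f/f replicate 3 and 5.18 on Chd7f/f replicate 2. All 7 tested erythroid and megakaryocyte markers were lower, with mean levels of 7.97 to 9.07 on control and 7.58 to 8.39 on Chd7f/f arrays. No gene of either list passed an adjusted p of 0.05, and none an unadjusted p of 0.05 (limma). The highest erythroid and megakaryocyte level was on control replicate 1 and the lowest on Chd7f/f replicate 1, which were also the highest and the lowest array for Ctnnal1. Between these ends the order differed. Chd7f/f replicate 3 was next highest in the list, at 8.39, and next to lowest in Ctnnal1, at 8.05. Control replicate 2 was at 7.97 in the list and next highest in Ctnnal1, at 8.91. The part of these cells in the Ctnnal1 difference was not tested, and in bulk samples fewer cells of a type and less RNA per cell cannot be told apart.

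**Figure D3:**
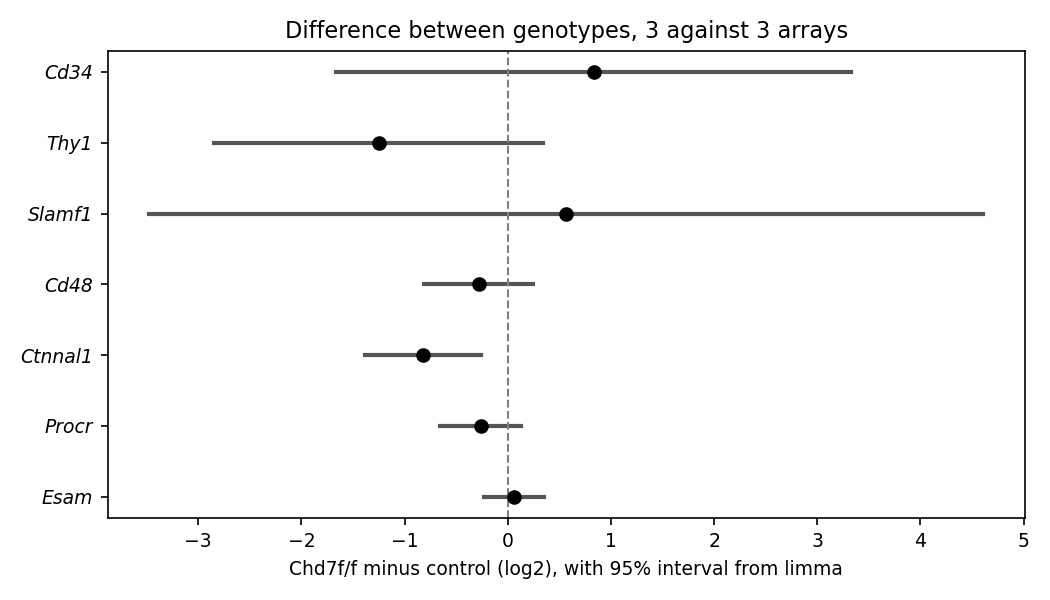
Difference in RMA level (log2), Chd7f/f minus control, of the 7 tested marker genes, as a point with its 95% interval from limma over 3 against 3 arrays. The interval of Ctnnal1, -1.38 to -0.26, excludes 0 before adjustment, and that of Slamf1 is the widest, from -3.47 to 4.61.

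Procr, which encodes the protein C receptor CD201, was at 4.32, 4.81 and 4.36 on control arrays 1, 2 and 3 and at 4.28, 4.16 and 4.26 on Chd7f/f arrays 1, 2 and 3. Only control replicate 2 lay above the background mark, so the lack of overlap between genotypes concerns levels near background. The difference of -0.26 (95% interval -0.66 to 0.13; limma, adjusted p = 0.9998) was -0.11 without control replicate 2. Esam, an adhesion gene of endothelium, platelets and stem cells, was below the mark on all 6 arrays, at 4.32, 4.38 and 4.37 on control arrays and 4.53, 4.25 and 4.47 on Chd7f/f arrays. Its difference was 0.06 (95% interval -0.23 to 0.35; limma, adjusted p = 0.9998), and this narrow interval belongs to a level that may be background.

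Cd27, a receptor of the TNF receptor family, was at 4.47, 4.01 and 3.78 on control arrays 1, 2 and 3 and at 4.10, 3.91 and 4.05 on Chd7f/f arrays 1, 2 and 3. Prom1 was at 3.52, 3.69 and 3.48 on control arrays and at 3.75, 3.58 and 3.48 on Chd7f/f arrays. Both genes were below the background mark on every array and overlapped between genotypes. Their mean levels lay under the filter of 4.13, the 30th percentile of named genes, and the nearest genes just inside it among the markers were Procr and Esam.

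Endothelial cells express Cd34, Procr and Esam, and their markers were mixed. Of 15 markers 6 stayed below the background mark on every array and 7 lay above it on every array, and the mean level of the list was 4.66 to 4.99 on control and 4.75 to 4.97 on Chd7f/f arrays. Cdh5, the junctional cadherin that defines endothelium, was at 4.76 to 4.97, Tie1 at 4.27 to 4.60 and Emcn at 3.02 to 3.73. Also above the mark on all arrays were Egfl7 at 5.52 to 7.83, Plvap at 5.36 to 7.52, Pecam1 at 5.10 to 6.13 and Kdr, a VEGF receptor gene, at 5.04 to 5.88. The part of endothelial cells in the levels of Cd34 was not tested. Mast cells also carry c-Kit, and several of their genes were high on all 6 arrays: the carboxypeptidase gene Cpa3 was at 12.92 to 13.09 and the high-affinity IgE receptor genes Fcer1a and Ms4a2 at 10.75 to 12.29 and 11.05 to 12.17. Other protease genes of the mast cell list were mixed. Cma1, at 6.77 to 9.80, and Mcpt1, at 5.21 to 7.10, were above the mark on all 6 arrays, and Mcpt2, at 4.20 to 6.83, on 5. The tryptase genes Tpsab1 and Tpsb2 and the protease gene Mcpt4 stayed below the mark on every array, at no more than 4.36. The mean level of the mast cell list was 7.99 to 8.47 on control and 8.01 to 8.75 on Chd7f/f arrays.

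Other genes used to gate progenitors were counted as a list. Of its 20 genes 18 were measured and 17 tested. Of these, 10 had a higher and 7 a lower mean in Chd7f/f, beside 43.7% and 56.3% of all tested genes. The median difference of the list was 0.12. Single arrays set this median: leaving out Chd7f/f replicate 3 gave -0.056, while it was 0.0046 once control replicate 3 was omitted and 0.019 with Chd7f/f replicate 1 omitted. None passed an adjusted p of 0.05 (limma), and Fcgr2b alone had an unadjusted p under 0.05. Itga2b, the integrin chain CD41 of megakaryocytes and early progenitors, was at 9.05 to 10.34, and Spn, the leukocyte sialoprotein CD43, at 9.85 to 10.22. Flt3, the receptor of multipotent and lymphoid-primed progenitors, exceeded the background mark only in Chd7f/f replicate 3, at 4.93, and Il7r, the receptor of lymphoid progenitors, stayed at 2.95 to 3.31. Ptprc, which encodes the leukocyte antigen CD45, ran from 5.76 to 7.74.

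Control replicate 1 had a surface profile of its own. Eng, the endoglin gene used to divide erythroid-biased progenitors, was at 9.07 there and at 4.79 to 6.39 on the other 5 arrays, and Tfrc, the transferrin receptor gene, was at 11.06 against 6.36 to 9.46. Tek, which encodes the angiopoietin receptor of stem cells and endothelium, was at 4.80 there and at 8.69 to 9.56 elsewhere. The red cell anion exchanger gene Slc4a1 was at 11.47 there and at 5.92 to 9.14 elsewhere. The other tested erythroid and megakaryocyte markers were mixed on control replicate 1. Rhag, Ermap and Gp9 were also highest there, at 12.02, 11.80 and 10.81. Klf1, at 10.03, and Epor, at 8.67, were higher on some other arrays, and Itga2b, at 9.05, was lowest there. This array combined the highest Thy1 and Cd48 with the lowest Slamf1. The part of erythroid cells or erythroid differentiation in that profile was not tested.

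**Figure D4:**
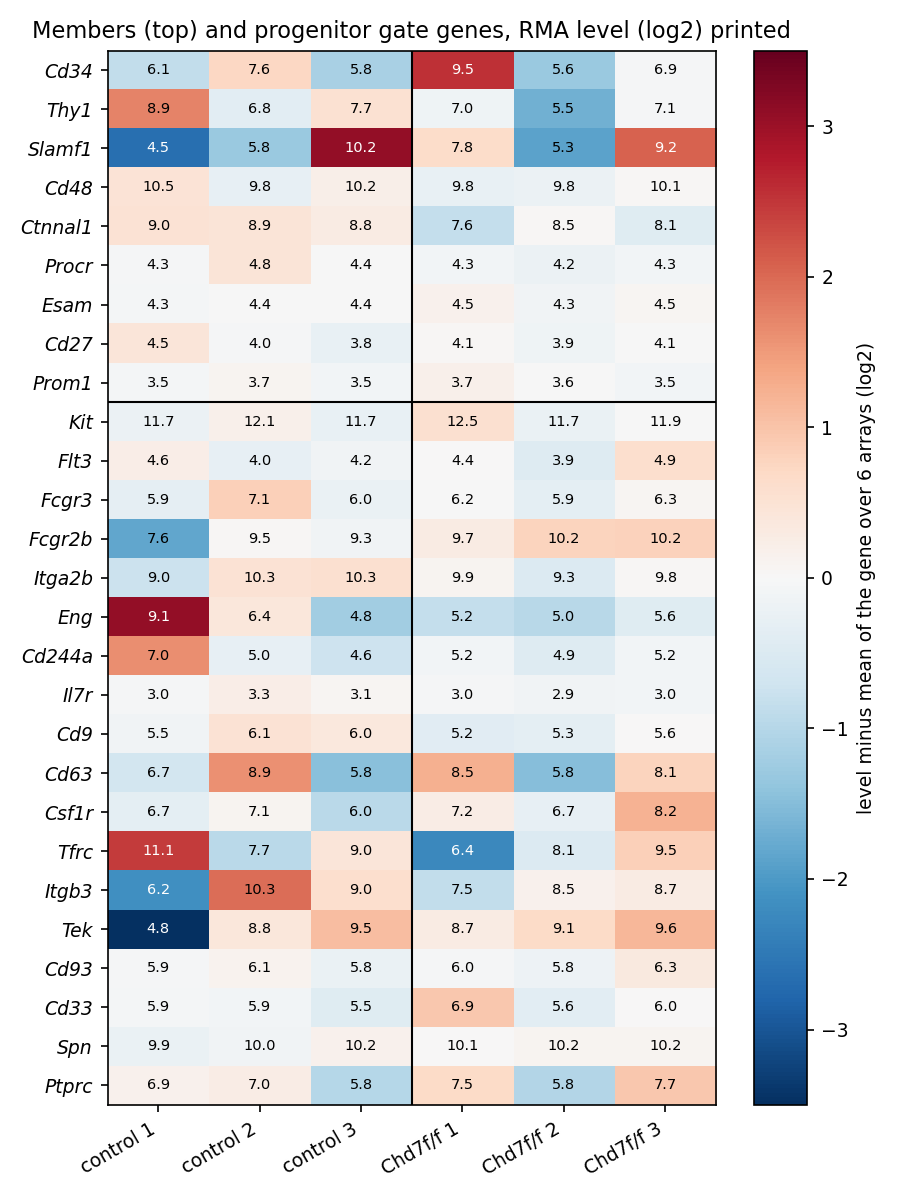
RMA level (log2, printed in each cell) of the 9 measured marker genes (upper block) and 18 other progenitor gate genes (lower block) on the 6 arrays, with the colour giving the level minus the mean of that gene. Colours compare arrays within a row. Control replicate 1 is set apart by high Eng (9.07) and Tfrc (11.06) and low Tek (4.80). It is also lowest in Slamf1 (4.51), with Chd7f/f replicate 2 not far above (5.27).

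Stem cell associated genes outside the surface list were also counted. Of 24 listed genes 22 were measured and 20 tested. Of these, 6 had a higher and 14 a lower mean in Chd7f/f, beside 43.7% and 56.3% of all tested genes. Their median difference was -0.072, and 0 passed an adjusted or unadjusted p of 0.05 (limma). That median turned to 0.052 without Chd7f/f replicate 2, and it ran from -0.21 to -0.025 when each of the other arrays was left out. Gata2, a transcription factor of stem and mast cells, was at 11.58 to 12.04 on all 6 arrays. Gfi1b, which encodes a transcriptional repressor active within the erythroid and megakaryocytic lineages, was at 11.13 to 12.18. Hlf, a transcription factor of stem cells, was at 6.16 to 7.76. Mecom, which encodes the stem cell factor EVI1, stayed at 3.69 to 3.96, below the background mark. The genes with the smallest p on this list were Vwf at -0.25, Hoxb5 at -0.51 and Erg at 1.13.

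Genes whose levels ran most like a marker gene were taken by Pearson r over the 6 arrays, as a description with no test, since with 6 arrays many genes reach a high r. For Cd34 they were Gpr171 (r = 0.997), Kit (r = 0.996) and Nmur2 (r = 0.994), and 217 of 13555 named coding genes had an r above 0.9. Kit and Cd34 were both highest in Chd7f/f replicate 1 and next highest in control replicate 2, although Kit spanned 0.80 log2 units and Cd34 3.86. Gpr171, a G protein-coupled receptor gene, ran from 7.44 to 9.31. For Thy1 they were Caprin1 (r = 0.990), Kif26a (r = 0.979) and Ch25h (r = 0.979), and for Slamf1 Cyp2e1 (r = 0.987), Usb1 (r = 0.980) and C1rl (r = 0.976). Of these, Nmur2 spanned only 4.55 to 4.86 and Cyp2e1 3.88 to 4.42, while Ch25h stayed at or below 4.31, levels near or below the background mark.

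Among the tested marker genes themselves, no common axis joined the 3 most variable. Over the 6 arrays Pearson r was 0.11 between Cd34 and Slamf1, -0.070 between Cd34 and Thy1 and 0.046 between Slamf1 and Thy1, given as descriptions over arrays that also share genotype. Thy1 and Cd48 had an r of 0.83 and shared their highest array, control replicate 1. By RNA, then, the array richest in Slamf1 was control replicate 3, that richest in Cd34 was Chd7f/f replicate 1 and that richest in Thy1 was control replicate 1, while Chd7f/f replicate 2 was lowest in Cd34 and Thy1 and next to lowest in Slamf1.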

How the data were processed

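Total RNA of 6 sorted samples was measured on Affymetrix arrays. The authors deposited log2 values per probe set, 41345 on each array. The submitters' processing notes list Affymetrix Expression Console and RMA, with no version or setting. RMA equalises the arrays' distributions, so differences in total signal are no longer visible. The log base rests on the method and on the range of 1.78 to 13.5.

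The platform's annotation gave 1 symbol to 23521 probe sets, several to 1814 and none to 16010; symbols were updated in RefSeq GRCm38.p6 (21994 of 22180 genes matched). Genes at or above the 30th percentile of mean level (4.13) were tested, 15526 in all, with limma 3.58.1 in R 4.3.3 (lmFit, eBayes, no covariate) and Benjamini-Hochberg adjustment over them. On data simulated for this comparison with 15526 genes, the fit recovered 37.2% of genes with a true log2 change of 1, 85.6% of those with 2 and 91.6% of those with 3. The simulated noise was normal, with SDs drawn from the fit's prior for all genes. Slamf1, Cd34 and Thy1 had SDs larger than those of 99.9%, 99.2% and 98.1% of tested genes, so these shares do not describe them.

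Named were the marker genes, Kit, Chd7, progenitor gate genes, genes of each list with the smallest p and genes of most similar pattern. Defining cell type markers and genes that set 1 array apart were named for their levels after these were seen. Members and lists were chosen with earlier results of these data known. The olfactory receptor mark was added after the data were seen. The alternatives were quantile normalization, median centring, no filter, the 50th percentile, the mean of probe sets, a trended robust prior, the replicate number as a block, array weights and leaving out each array. Upstream sequences in the RefSeq table matched 7 of 10 members.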

Additional observations from a re-analysis of the deposited data

How the results depend on the processing

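Across 14 alternatives no gene passed an adjusted p of 0.05, and the lowest adjusted p of a marker gene was 0.989 (limma). The count of marker genes at an unadjusted p under 0.05 was 1 in the reported fit, 2 with the replicate block (Ctnnal1 and Thy1) and 1 to 3 without each array in turn, the 3 (Cd48, Ctnnal1 and Thy1) without control replicate 2. For all genes that count was 286; it was 530 with no filter, 159 with the filter at the 50th percentile, 571 with array weights and 270 to 477 without each array in turn. Of 126 recomputed differences of the 9 marker genes 6 turned sign, all when 1 array was left out: Cd34 ran from -0.25 to 1.69, Slamf1 from -0.60 to 2.25, and the untested Cd27 from -0.22 to 0.12 and Prom1 from -0.036 to 0.10. The median differences of 9 of 12 gene lists turned sign under at least 1 alternative, and those of the tested marker genes, the monocyte and granulocyte list and the erythroid and megakaryocyte list did not. Deviations from the group means had r = 0.027, -0.025 and 0.034 over genes between samples of the same number. Between samples of unlike number r ran from -0.099 to 0.089. This check showed no pairing by number and cannot exclude one. Levels near the background mark limit Procr, Esam, Cd27 and Prom1.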

Other observations

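Cd59a, which encodes a lipid-anchored inhibitor of complement in the Ly6 superfamily, was at 7.98 on the third Chd7f/f array and between 11.60 and 12.26 on the other 5 arrays. It was singled out after its values were seen. Ly6e, another member of this superfamily, was at 12.75 to 13.12 on all 6 arrays, and Ly6c2 at 6.23 to 8.98, highest in the same Chd7f/f replicate 3. Signal shared between close copies of Ly6 genes was not tested. Of 8 tested genes on the Ly6 list 4 were higher and 4 lower in Chd7f/f leukemias, beside 43.7% and 56.3% of all tested genes. Of the 8, 0 passed an adjusted or an unadjusted p of 0.05 (limma).

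Interferon-induced genes had mean levels of 5.50, 6.46 and 5.68 on control arrays 1, 2 and 3 and of 5.74, 5.46 and 5.79 on Chd7f/f arrays 1, 2 and 3. Control replicate 2 was highest, with Rtp4 at 7.58 against 4.16 to 4.66 and Oasl2 at 6.96 against 3.86 to 4.87 on the other arrays. Of 15 tested genes 5 were higher and 10 lower in Chd7f/f leukemias, beside 43.7% and 56.3% of all tested genes. Of the 15, 0 passed an adjusted or an unadjusted p of 0.05 (limma). The B cell receptor gene Cd79a was also highest in control replicate 2, at 7.18 against 4.97 to 5.26, while 5 of 11 B cell markers stayed below the background mark on every array. The other B cell markers that passed the mark on any array, Cd79b, Cd22, Blk, Fcrla and Pax5, were each highest on a different array from control replicate 2. Rtp4, Oasl2 and Cd79a were singled out after their values were seen.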
